A study of Rattus norvegicus with 288 samples.

Results

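Ribosomal protein genes of the cytosol were described in 3 organs (bone marrow, heart, liver) of rats given temsirolimus, sunitinib, sorafenib or a combination of these drugs. The members were all genes whose symbol starts with Rpl or Rps and a number, or with Rplp, and that had a probe set listing that symbol alone. Of 56 matching symbols, 7 Rps6k kinase genes, Rps27l and 2 pseudogene symbols were left out. The remaining 46 genes, 33 of the large and 13 of the small ribosomal subunit, were a small set among the 14218 genes measured. Each gene was read from its brightest probe set, which was the same probe set in the 3 tissues for all 46 genes. Rpl3, Rpl7, Rpl7l1, Rpl14 and Rps24 have 2 probe sets each. Another 36 probe sets list a ribosomal protein gene beside a further symbol and were left aside. Rps27a was not analysed here.

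All rats were male Sprague-Dawley animals of 7 to 8 weeks that carried a catheter in the femoral vein. Each received an intravenous bolus of temsirolimus at 0.3 mg/kg or of its vehicle (TEM vehicle). An oral dose followed 30 minutes later. It held sunitinib (5 mg/kg), sorafenib (25 mg/kg) or no drug, as water or F68/PG/PEG400. Water and F68/PG/PEG400 were the oral vehicles of sunitinib and sorafenib, respectively. The 8 treatments were sampled 1, 6 and 24 h after dosing with 4 rats each, and the 3 tissues of the 96 rats gave 288 arrays. Bone marrow came from the left femur, heart from the apex and liver from the left lateral and median lobes. RNA was extracted from the whole tissue, so each array measures a mixture of cell types.

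A ribosome is built from ribosomal RNA and about equal amounts of each ribosomal protein, so the genes of the large (Rpl) and small (Rps) subunits are expressed together and at high level in all nucleated cells. Temsirolimus is an ester of rapamycin and inhibits mTORC1, the kinase complex that couples nutrient and growth factor signals to protein synthesis. Ribosomal protein mRNAs belong to the TOP mRNAs, which begin with a cytosine followed by a run of pyrimidines, and mTORC1 controls mainly how well these mRNAs are translated. Sunitinib and sorafenib are oral inhibitors of several kinases, among them the VEGF and PDGF receptors. The array measures mRNA abundance and not translation.

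To show what the start of these genes looks like, 30 bases around the annotated RefSeq transcript start are printed for 8 of the 46 genes. Each window holds 10 bases before the start and 20 from it on (assembly GRCr8, 5′ to 3′ on the gene's strand). The 8 were picked by name, and a larger share of them holds the run described next than of all matched genes. Capitals mark a C at the annotated start together with the C and T letters that follow it without a break, where at least 4 follow. For temsirolimus alone in liver at 24 h, Rpl3, Rps24 and Rps9 had the largest changes among the genes called with all arrays. They hold no such run at the annotated start. Rpl37a, Rpl35 and Rpl35a hold one and also fell there in at least 1 fit. Rplp0 and Rps15 hold one and were not called there with all arrays or without rat 7M78.
Rpl3: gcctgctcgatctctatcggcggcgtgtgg
Rps24: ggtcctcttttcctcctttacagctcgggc
Rps9: cggccacgtttctctttgtcacgggcctga
Rpl37a: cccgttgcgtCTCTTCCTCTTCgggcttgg
Rpl35: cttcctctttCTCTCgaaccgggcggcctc
Rpl35a: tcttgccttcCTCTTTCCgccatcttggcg
Rplp0: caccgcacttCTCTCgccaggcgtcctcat
Rps15: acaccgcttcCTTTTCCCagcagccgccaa
These windows lie at chr7:113507971-113508000 on the minus strand for Rpl3, chr16:96507-96536 on the plus strand for Rps24, and chr1:74430418-74430447 on the minus strand for Rps9. They lie at chr9:81748081-81748110 on the plus strand for Rpl37a, chr3:43165902-43165931 on the minus strand for Rpl35, and chr11:81235002-81235031 on the minus strand for Rpl35a. Those of Rplp0 and Rps15 lie on the minus strand at chr12:46718371-46718400 and chr7:10068096-10068125. Of the 46 genes, 41 matched a RefSeq start, and Rpl23a, Rpl27, Rpl30, Rpl7 and Rps29 did not. The run stood at the annotated start of 12 of the 41 (29.3%) and of 881 of all 33469 RefSeq starts of rat (2.63%). An annotated start can be some bases off the true start, and when a run that opens within 5 bases before to 10 after the start was allowed, 22 of the 41 (53.7%) and 17% of all starts held one. Rps24 and Rps9 were among these 22, and Rpl3 was not. Rpl14, which was called in liver without rat 7M78 and is not printed, holds the run. Of the 17 matched genes called in that fit 4 held it at the annotated start, and of the 24 others 8. A missing match says only that these letters are not in the window.

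Signal levels split the genes in a bright and a dim class. The probe sets of 37 genes averaged at least 12 on the log2 scale over all arrays, close to the upper end of the array's range, and 9 were dimmer (Rpl26l1, Rpl28, Rpl30, Rpl39, Rpl39l1, Rpl3l, Rpl7l1, Rps13 and Rps4y2). In liver, the probe sets of Rpl28 and Rpl30 lay at the 8.4 and 13.7 percentile of all probe sets, near the array's floor, and that of Rpl7l1 at the 92.4. For a dim gene near the floor, a small change or a low correlation says little about its mRNA. Levels of different probe sets are not comparable, so each gene is compared only with itself. The labelled tissues carried their own markers: the mean log2 signal of 13 hepatocyte genes was 14.36 to 14.73 in the livers, that of 12 cardiac muscle genes 12.76 to 13.98 in the hearts, and that of 10 erythroid and 6 granulocyte genes 12.03 to 12.96 and 11.34 to 12.97 in the bone marrows. Some hearts also carried hepatocyte signal, with a hepatocyte marker mean of 5.72 to 14.29 (median 6.23) over 96 hearts. It still reached 12.21 in the 93 hearts left without the arrays named below.

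The within-group standard deviation (SD) of a bright gene had a median of 0.0503 (bone marrow), 0.0822 (heart) and 0.0832 (liver) on the log2 scale, against 0.148, 0.132 and 0.136 over all genes, when the 6 arrays named below were left out. After each group's mean was taken off, 2 bright genes correlated over arrays with a median Pearson r of 0.35 over 95 bone marrow arrays, 0.63 over 93 heart arrays and 0.60 over 94 liver arrays. The corresponding medians between dim genes were 0.04, 0.03 and -0.02. Genes of an array share its labelling reaction and normalization, so these values describe the arrays. The bright probe sets lie near the top of the signal range, where differences can be compressed, and the part of this in their small SD was not tested.

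A few arrays stood apart in the mean log2 signal of the 37 bright genes, and the results that rest on them are given with and without them. In bone marrow, the array of rat 4M45 (6 h, temsirolimus then F68/PG/PEG400) had 12.88 against 13.59 to 13.79 in the other 95 arrays, with 3′:5′ signal ratios of 25.24 for Actb and 61.77 for Gapdh. In heart, rat 4M46 (6 h, the same treatment) had 13.86 and rat 8M92 (1 h, TEM vehicle then sorafenib) 13.60, above the 13.04 to 13.48 of the other hearts, while rat 6M68 (1 h, temsirolimus then sorafenib) had 13.03 and a hepatocyte marker level of 14.29. In liver, rat 7M78 (24 h, TEM vehicle then sunitinib) had 12.57 against 13.18 to 13.51 in the other livers. The same array had a narrow signal range, with its 90th percentile at 9.17 against at least 10.06 elsewhere. The liver array of rat 4M48 (24 h, temsirolimus then F68/PG/PEG400) had a mean of 13.23 and a 3′:5′ ratio of 9.59 for Actb.

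**Figure D1:**
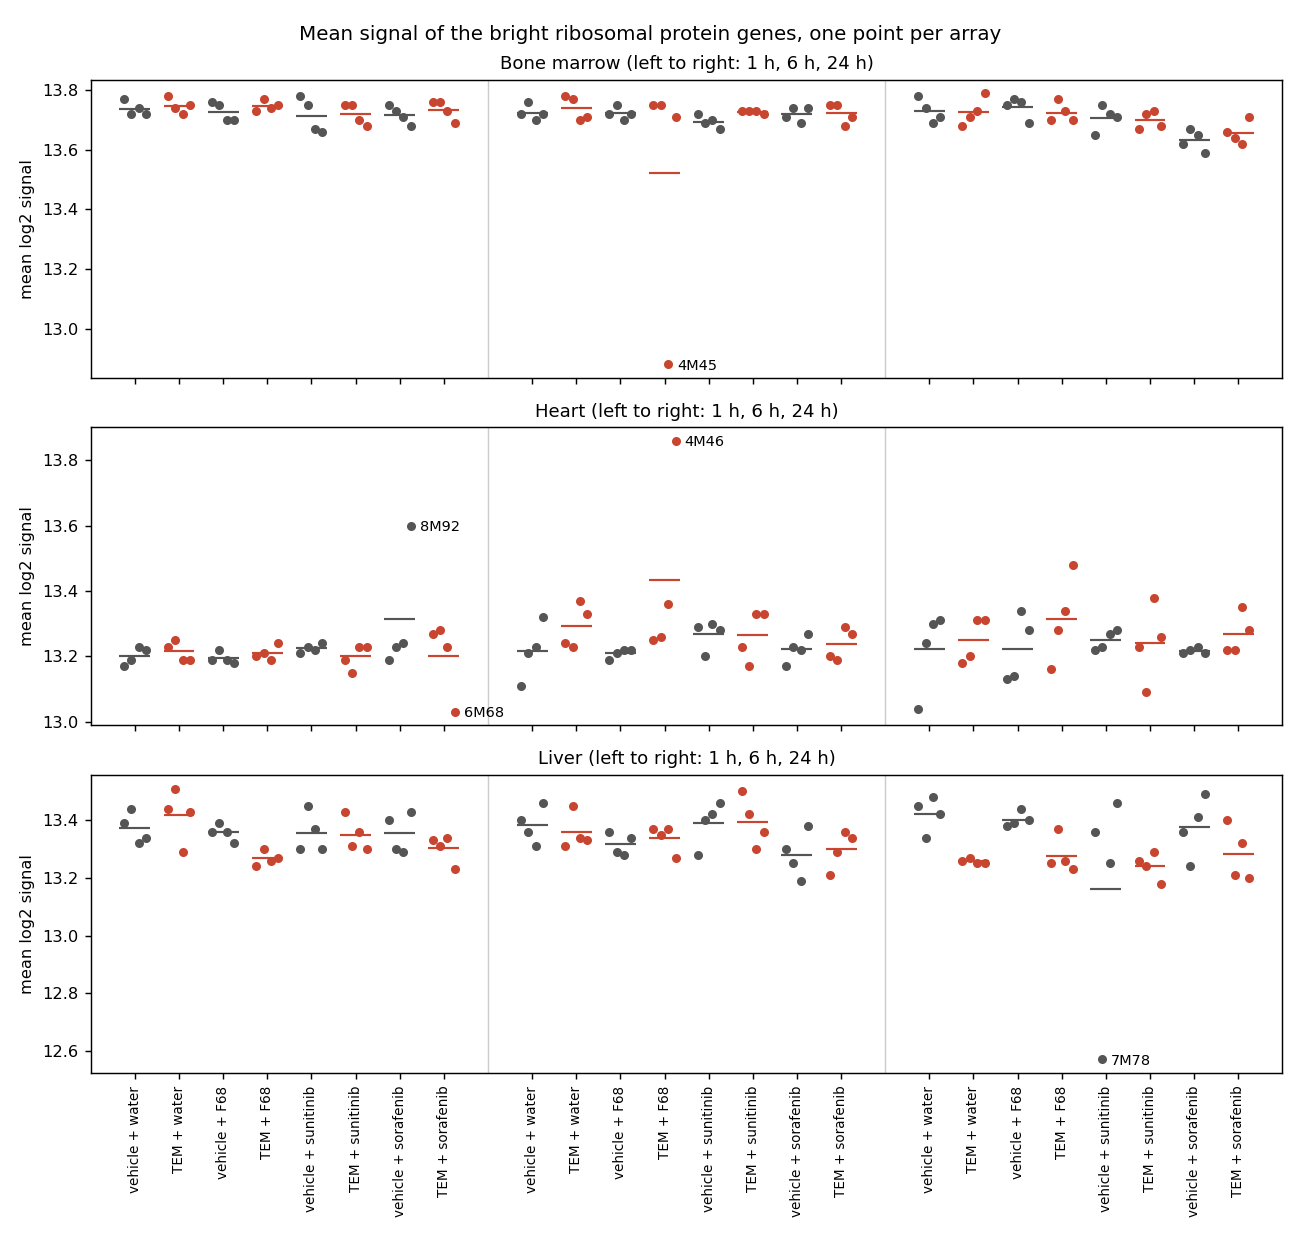
Mean log2 signal of the 37 bright ribosomal protein genes on each array (points) with the group mean (line), for bone marrow, heart and liver, by treatment and time, where TEM is temsirolimus, vehicle is its intravenous vehicle and F68 is F68/PG/PEG400. Arrays 4M45 at 12.88, 4M46 at 13.86, 8M92 at 13.60 and 7M78 at 12.57 lie far from the others of their tissue. Red marks TEM and grey its vehicle, and in liver at 24 h the means of TEM with water and with F68 lie below those of their vehicle groups.

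The first comparison was of temsirolimus alone, 8 rats given temsirolimus against 8 given its vehicle, averaged over both oral vehicles. In liver at 24 h, 8 of the 46 genes fell and none rose (limma, Benjamini-Hochberg adjusted p under 0.05 over all 14218 genes), while 2.3% of all genes were called lower. The falls were small. The median log2 change of the 46 genes was -0.125 and that of all genes 0.015, and 42 of the 46 fitted changes were below 0. For the 37 bright genes the median was -0.14, or -9.24% on the linear scale, with 36 of 37 below 0. It was -0.016 for the 9 dim genes, some of which lay near the array's floor. In a whole tissue, fewer cells of a type and less RNA per cell cannot be told apart.

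Rpl3, which lies next to the catalytic centre of the large subunit, had 13.15, 13.19, 13.17 and 13.10 in the livers given temsirolimus with water and 13.12, 13.27, 13.09 and 13.08 in those given it with F68/PG/PEG400. The vehicle livers had 13.53, 13.42, 13.54 and 13.53 with water and 13.43, 13.32, 13.49 and 13.40 with F68/PG/PEG400. All 8 treated livers were below all 8 vehicle livers. The log2 change of Rpl3, read from the brighter of its 2 probe sets, was -0.31 ± 0.0757 (SE, adjusted p = 0.00841).

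Rps24, a small subunit protein whose gene is mutated in some patients with Diamond-Blackfan anaemia, ranged from 12.84 to 13.22 (median 13.13) in the 8 treated livers and from 13.25 to 13.51 (median 13.37) in the 8 vehicle livers. The groups did not overlap, and the lowest treated value was that of rat 4M48. Its log2 change was -0.29 ± 0.0660 (SE, adjusted p = 0.00554). Rps24 has 2 probe sets, and with their mean the change was -0.18 and was not called (adjusted p = 0.341). Rps9 ranged from 12.94 to 13.49 (median 13.27) in the treated and from 13.38 to 13.63 (median 13.51) in the vehicle livers, overlapping, with a log2 change of -0.25 ± 0.0614 (SE, adjusted p = 0.00841).

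Rps3, a small subunit protein at the mRNA entry site, fell by 0.23 ± 0.0633 (SE, adjusted p = 0.0231). The other 4 called genes had changes of -0.21 (Rpl11, a large subunit protein that also binds Mdm2), -0.19 (Rpl37a), -0.15 (Rps29) and -0.14 (Rpl41, the smallest ribosomal protein). Rpl11 ranged from 13.14 to 13.51 in the treated and from 13.55 to 13.70 in the vehicle livers, and Rpl37a from 13.67 to 13.83 and upward from 13.86, so neither gene's groups overlapped. Over all 46 genes the groups did not overlap for 5, which were Rpl3, Rps24, Rpl11, Rpl37a and Rpl4, while 0.992% of all genes had every treated below every vehicle liver.

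Other members were not called. Rps6, the small subunit protein that S6 kinase phosphorylates downstream of mTORC1, had 13.85 to 13.99 in the treated and 13.89 to 14.06 in the vehicle livers, with a change of -0.04 (adjusted p = 0.832). Rplp0, a protein of the ribosomal stalk and a common reference gene, had a change of -0.13 (adjusted p = 0.376). Of the large subunit genes 4 of 33 were called and of the small subunit genes 4 of 13, with medians of -0.105 and -0.149. Whether the subunits differ was not tested.

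**Figure D2:**
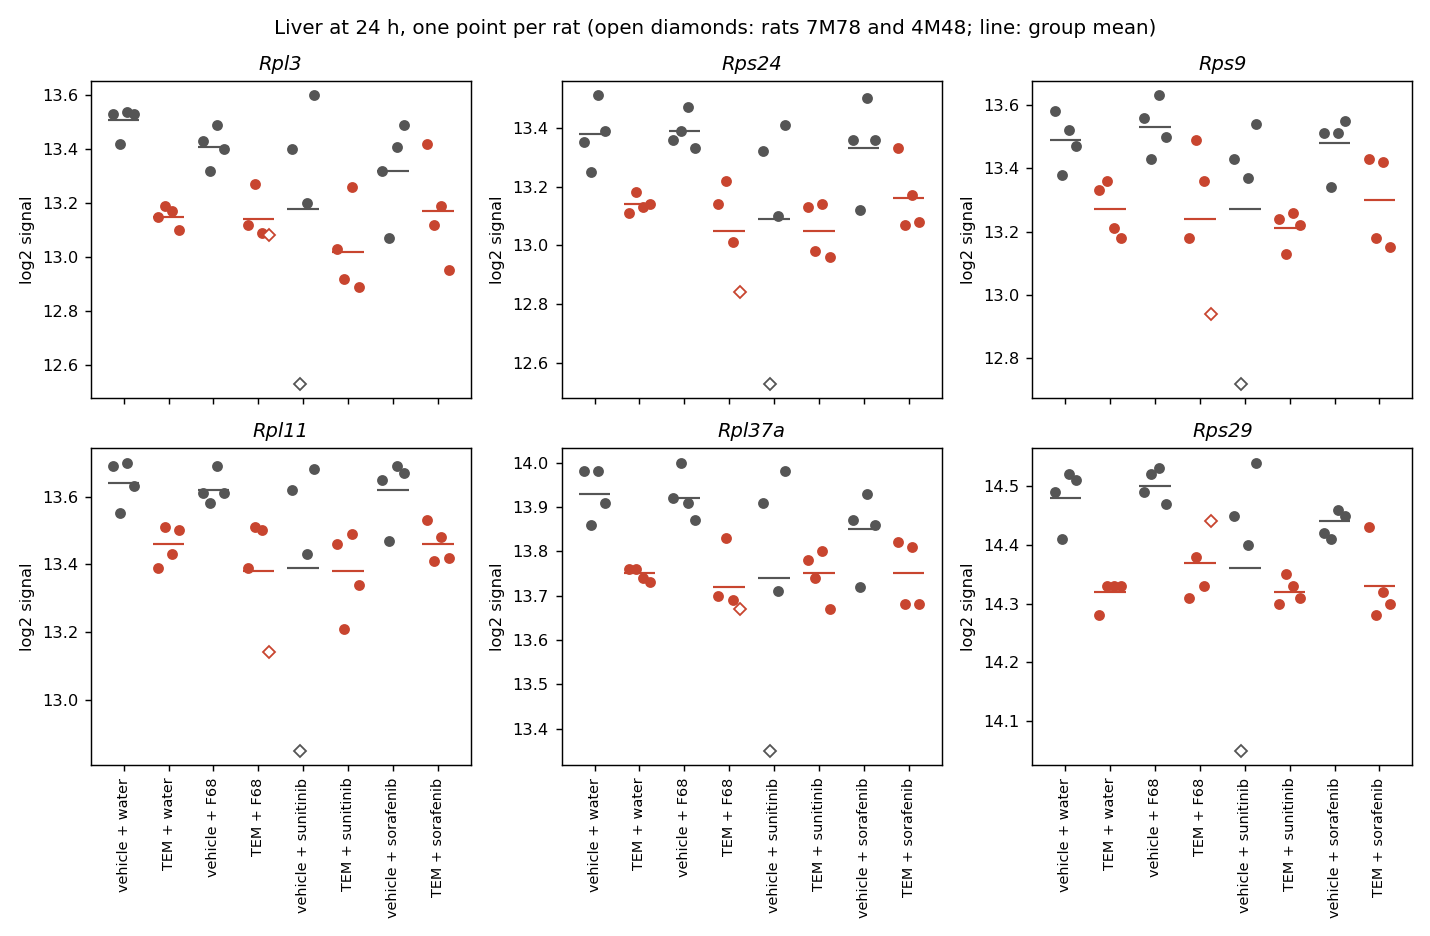
Log2 signal of 6 called genes in every liver taken at 24 h (points, 4 rats a group) with group means (lines), where TEM is temsirolimus, vehicle is its intravenous vehicle and F68 is F68/PG/PEG400. Red marks rats given TEM and grey those given its vehicle, and rats 7M78 and 4M48 are open diamonds. For Rpl3, Rps24, Rpl11 and Rpl37a all 8 TEM livers without an inhibitor lie below the 8 matching vehicle livers, while Rps9 and Rps29 overlap.

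Rat 7M78 is in neither group of that comparison, but its array enters the spread shared by all 24 groups of the tissue. Without it, 19 of the 46 genes fell and none rose, among them all 8 above, against 5.51% of all genes called lower. All 19 were bright genes, 11 of the large and 8 of the small subunit. Without 4M48 as well, 16 fell, all of them among the 19, against 4.56% of all genes, and the median change of the 46 genes was -0.109. The array of 4M48 was lower than every other treated liver for several genes, for example 11.07 against 11.98 to 12.13 for Rpl14, and higher for others, for example 12.90 against 12.31 to 12.65 for Rps28. Rpl14 was called without 7M78 (-0.28, adjusted p = 0.00678) and not without both rats (-0.16, adjusted p = 0.0838). Rpl3 had -0.30 ± 0.065 (SE, adjusted p = 0.00144) without both rats. The count of called genes ran from 0 to 22 when the rats of the same replicate number were left out of every group. It was 5 without the array of 4M48 and with that of 7M78 kept.

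**Figure D3:**
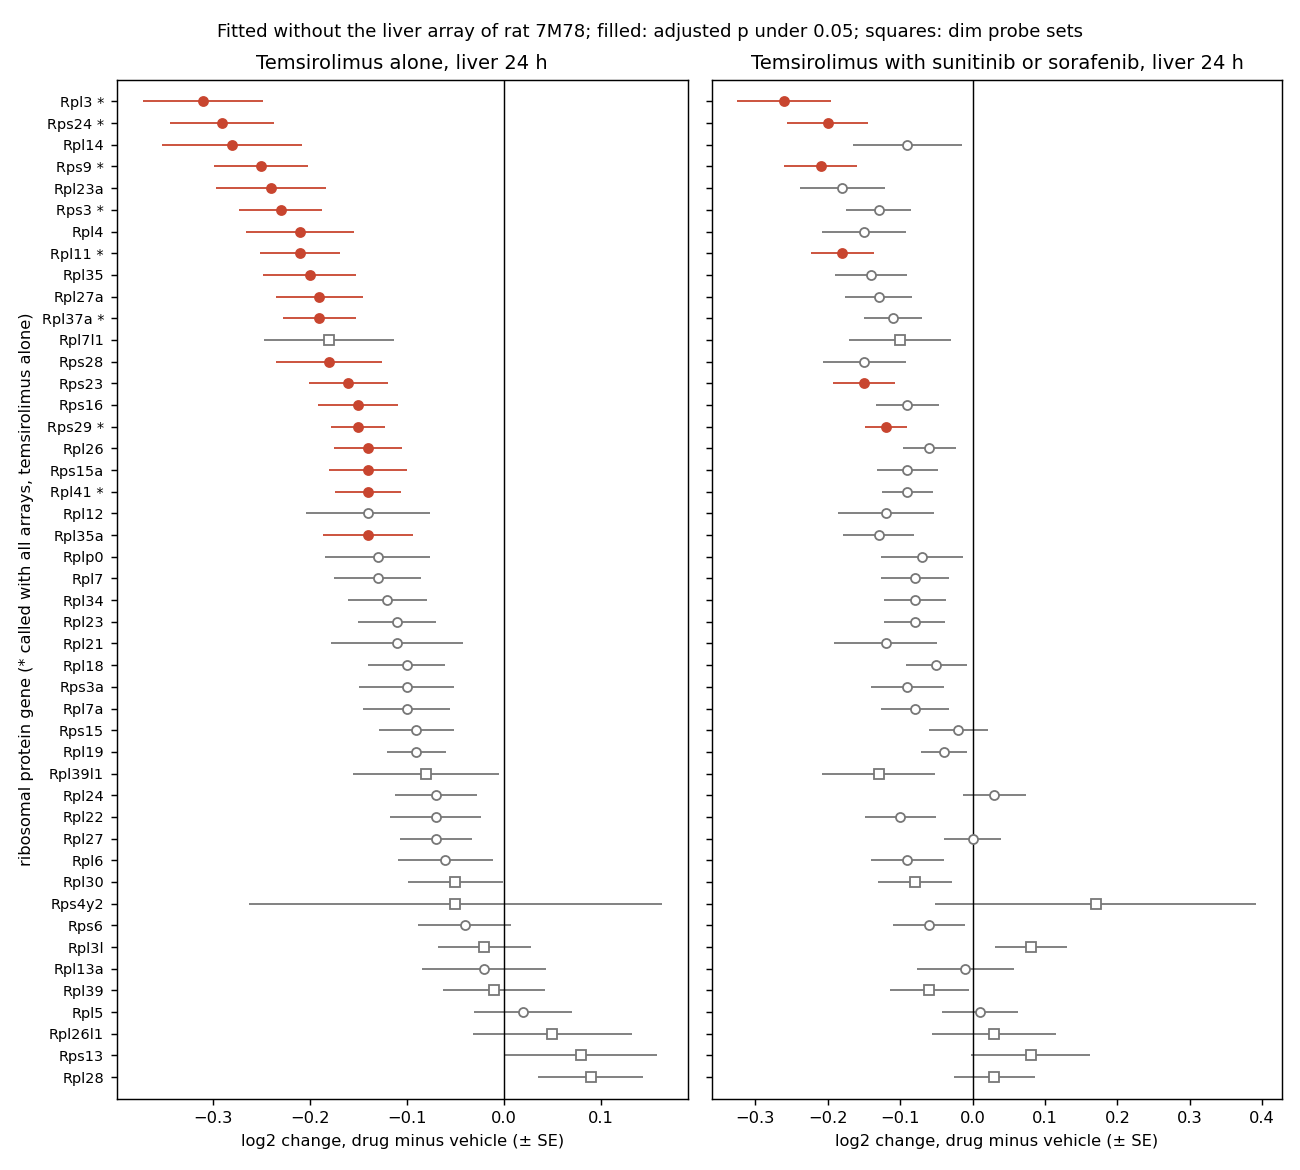
Log2 change (± SE) of each of the 46 genes in liver at 24 h by temsirolimus alone (left) and by temsirolimus in rats that also received sunitinib or sorafenib (right), both fitted without rat 7M78. Filled points are called genes, squares are dim probe sets and asterisks mark the 8 genes called with all arrays. On the left 19 genes are called, all lower, and on the right 6.

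With each oral vehicle alone (4 rats against 4) no gene was called by limma, with 16 genes at an unadjusted p under 0.05 with water and 11 with F68/PG/PEG400. With water the median change of the 46 genes was -0.146, and the treated and vehicle livers did not overlap for 29 of them, against 5.38% of all genes that were lower without overlap. With F68/PG/PEG400 the median was -0.111, and 8 did not overlap, against 3.94% of all genes. The 4 rats of a group form a first and a second pair (array sets). The paper reports that dosing ran over consecutive days, with part of each dose group on each day. Whether the array sets follow those days was not tested. Within the first array set the median change was -0.09 with 40 of 46 genes below 0, and within the second -0.15 with 41 below 0.

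At 1 and 6 h no ribosomal protein gene was called in liver. The medians of the 46 genes were -0.015 and -0.007, with 0 and 2 genes at an unadjusted p under 0.05. Whether the change at 24 h differs from that at the earlier times was not tested.

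Among the values that moved with temsirolimus in liver at 24 h was the mean log2 signal of the proliferation markers, which ran from 6.54 to 7.96 in the treated and from 7.11 to 8.94 in the vehicle livers. Of these 14 genes, 7 fell, 10 without 7M78 and 3 without 7M78 and 4M48. The mean of the endothelial markers was 8.87 to 9.23 in the treated and 8.73 to 8.91 in the vehicle livers, with none of 8 called. The hepatocyte marker mean was 14.65 to 14.73 and 14.67 to 14.72. The part of these cell markers in the change of the ribosomal protein genes was not tested.

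The 73 mitochondrial ribosomal proteins, which translate the mitochondrial genome, had a median change of -0.136, with 5 of 73 falling and none rising, and 28 falling without 7M78. Mrpl49 (-0.71, adjusted p = 7.44e-05), Mrps22 (-0.51) and Mrps27 (-0.44) fell most. Their mean signal was 10.29 to 10.39 in the treated and 10.41 to 10.56 in the vehicle livers, without overlap.

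The 13 measured translation factors and other TOP genes had a median change of 0.036. Eif4b, an initiation factor that helps unwind mRNA, rose by 0.51 ± 0.0813 on the log2 scale (SE, adjusted p = 1.86e-05), while Rpsa, a small subunit protein whose symbol falls outside the selection, fell by 0.28 (adjusted p = 0.0362). Without 7M78, 5 of the 13 rose and 2 fell. Of 40 ribosome biogenesis genes, Nhp2, a snoRNP protein, fell (-0.40) and Nob1, the endonuclease that matures the 18S rRNA, rose (0.21). Of 16 mTOR pathway genes, only Eif4ebp1, the translation repressor that mTORC1 phosphorylates, was called (-0.33, adjusted p = 0.0115), joined without 7M78 by Eif4e, the cap-binding initiation factor (-0.17, adjusted p = 0.0181).

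The second question was whether temsirolimus did the same in rats that also received a kinase inhibitor, 8 against 8, in a comparison that shares no array with the first. With all arrays no ribosomal protein gene was called in liver at 24 h, while 7.86% of all genes were called in either direction, and 3 genes had an unadjusted p under 0.05. The median was 0.004. The vehicle group of this comparison holds rat 7M78, whose Rpl3 value of 12.53 lay far below the 13.20 to 13.60 of the other 3 rats given sunitinib alone.

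Without 7M78, 6 genes fell and none rose, against 2.16% of all genes called lower. They were Rpl3, Rps9, Rps24, Rpl11, Rps23 and Rps29, and all 6 were among the 19 called for temsirolimus alone in the fit without that rat. The median change of the 46 genes was -0.088 with 39 below 0. Rpl3 ranged from 12.89 to 13.42 (median 13.07) in the 8 treated livers and from 13.07 to 13.60 (median 13.40) in the 7 vehicle livers. These ranges overlap, and the log2 change was -0.26 ± 0.0648 (SE, adjusted p = 0.00902). Rps24 had -0.20 (adjusted p = 0.0249) and Rps9 -0.21 (adjusted p = 0.00775). The median was -0.091 with sunitinib and -0.089 with sorafenib. In the first array set, which holds 7M78, the median was 0.13, and in the second -0.13.

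In the other 8 combinations of tissue and time, temsirolimus in the presence of an inhibitor called no ribosomal protein gene, with 0 to 9 genes at an unadjusted p under 0.05. The smallest p was that of Rpl7l1 in heart at 6 h (-0.20 ± 0.065, SE, adjusted p = 0.101 by limma). The interaction of temsirolimus with the oral drug, tested on 2 degrees of freedom, was called for no gene of the array in any tissue or time. The smallest interaction p of a ribosomal protein gene was that of Rpl18 in heart at 6 h (adjusted p = 0.223 by limma).

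In heart at 6 h, 2 of the 46 genes rose with temsirolimus alone and none fell, against 0.113% of all genes called higher. Rpl4 ranged from 12.73 to 13.36 in the 8 treated and from 12.52 to 12.76 in the 8 vehicle hearts, with a change of 0.21 ± 0.0498 (SE, adjusted p = 0.0423). Rpl14 ranged from 12.49 to 13.14 and from 12.22 to 12.54, with a change of 0.26 ± 0.0632 (SE, adjusted p = 0.0449). Both groups overlap, and the highest treated value of each gene was that of rat 4M46. The median of the 46 genes was 0.138 with 44 above 0, and 35 had an unadjusted p under 0.05.

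Without the heart of rat 4M46 no gene was called, with Rpl4 at 0.16 (adjusted p = 0.226) and Rpl14 at 0.21 (adjusted p = 0.226), and the median was 0.07 with 40 above 0. That heart had a macrophage marker mean of 10.08 and a T and NK cell marker mean of 8.20, while the 8 vehicle hearts had 8.43 to 9.04 and 6.76 to 7.29. The treated hearts also had hepatocyte marker means of 5.94 to 10.99 against 5.88 to 6.36, and with this mean as a covariate 11 ribosomal protein genes rose, against 0.654% of all genes called higher. The part of these markers in the change was otherwise not tested. In the rats given an inhibitor as well, the median change in heart at 6 h was 0.003. At 24 h it was 0.062 for temsirolimus alone, with none called and 4 genes at an unadjusted p under 0.05.

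Bone marrow, where many cells divide, showed no called ribosomal protein gene with temsirolimus alone at 1, 6 or 24 h. The medians were 0.009, -0.026 and -0.009, with 0, 11 and 0 genes at an unadjusted p under 0.05. Without rat 4M45 the median at 6 h was 0.008, with 0 genes at an unadjusted p under 0.05. In the comparison with F68/PG/PEG400 only, 20 genes fell and 1 rose at 6 h, while 11.9% of all genes were called lower. That group holds the array of rat 4M45, on which Rpl14 had 9.72 against 12.77 to 13.02 in the other 3 rats, Rpl3 11.28 against 14.08 to 14.10, and Rpl26, the gene that rose, 14.23 against 13.68 to 13.73. Without that array none was called, 1 had an unadjusted p under 0.05, and the median moved from -0.064 to 0.012.

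The change by temsirolimus was compared between tissues on the difference of 2 tissues within each rat. At 24 h, Rps24 was called lower in liver than in heart, and it was the only ribosomal protein gene called, against 0.19% of all genes. The liver minus heart difference ran from -1.06 to -0.43 (median -0.54) in the 8 rats given temsirolimus and from -0.41 to -0.04 (median -0.24) in the 8 vehicle rats. The groups did not overlap, and temsirolimus changed the difference by -0.35 ± 0.0799 (SE, adjusted p = 0.0302). The median over the 46 genes was -0.169. Without 7M78, 15 of the 46 were called lower, against 0.654% of all genes, and without rat 4M48 none was, with Rps24 at -0.29 (adjusted p = 0.188). With the mean of its 2 probe sets Rps24 had -0.07 (adjusted p = 0.91).

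At 6 h, Rpl18 was called higher in heart than in bone marrow (0.41 ± 0.086, SE, adjusted p = 0.0455), where 0.0211% of all genes were called higher. The within-rat difference ran from -0.81 to 0.87 with temsirolimus and from -1.02 to -0.74 without it, and the highest value was that of rat 4M45. Without rat 4M45 the value was 0.25 and was not called (adjusted p = 0.153).

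**Figure D4:**
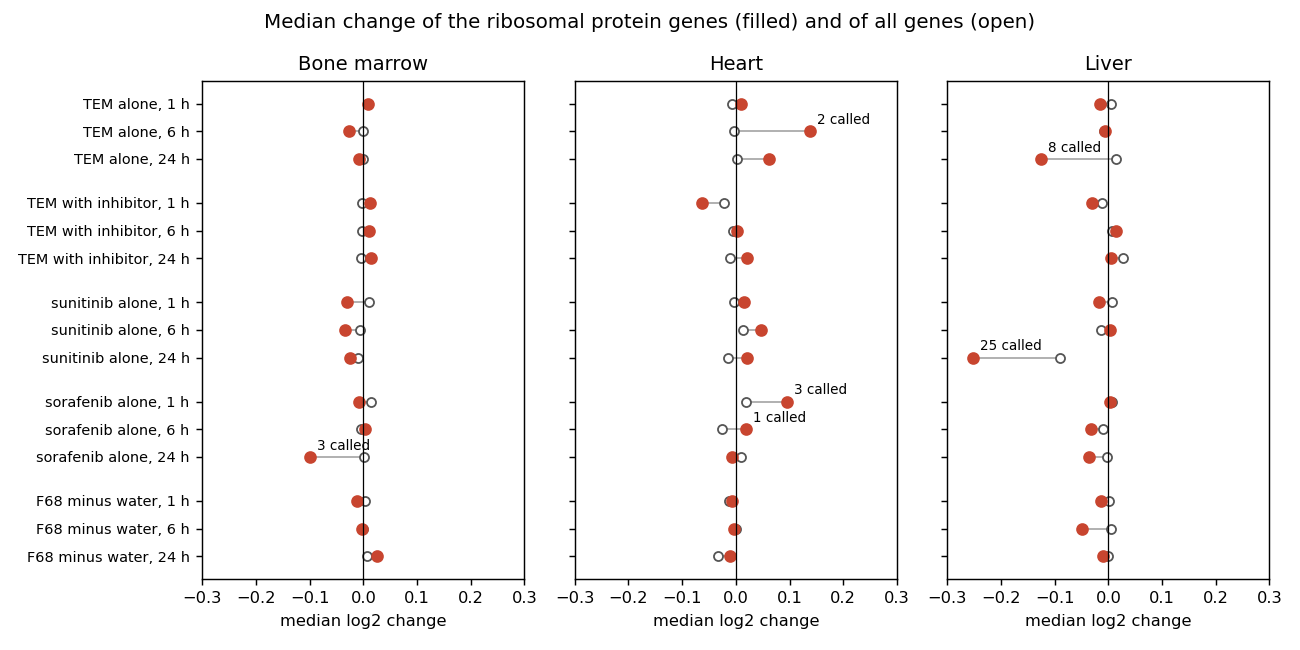
Median log2 change of the 46 ribosomal protein genes (filled) and of all 14218 genes (open) in bone marrow, heart and liver for each comparison and time, with all arrays, where TEM is temsirolimus and inhibitor is sunitinib or sorafenib. Counts mark the comparisons with called ribosomal protein genes, among them temsirolimus alone in liver at 24 h (-0.125 against 0.015) and in heart at 6 h (0.138 against -0.003), and sunitinib alone in liver at 24 h, whose group holds rat 7M78.

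Sunitinib alone (4 rats against 4 given water) called 24 ribosomal protein genes lower and 1 higher in liver at 24 h, against 7.92% of all genes called lower. The largest falls were those of Rpl22 (-0.38), Rpl23a (-0.38), Rps28 (-0.35) and Rpl13a (-0.32), and Rpl39l1, a dim probe set, rose by 0.48. Rpl22 had 12.93, 11.77, 12.77 and 12.98 with sunitinib and 13.07, 12.92, 13.01 and 12.96 with water, and the value of 11.77 was that of rat 7M78. Without it no gene was called, the median moved from -0.252 to -0.065, and the median of all genes had been -0.091 with the rat. In rats that had received temsirolimus, sunitinib called none in liver at 24 h. In the other 8 combinations of tissue and time sunitinib alone called no ribosomal protein gene.

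Sorafenib alone (4 rats against 4 given F68/PG/PEG400) lowered 3 ribosomal protein genes in bone marrow at 24 h and raised none, against 3.31% of all genes called lower. Rpl34, a large subunit protein, had 13.72, 13.79, 13.73 and 13.72 with sorafenib and 14.01, 13.98, 13.85 and 13.84 with its vehicle. The groups did not overlap, and the change was -0.18 ± 0.0429 (SE, adjusted p = 0.00535). Rpl35a (-0.18, adjusted p = 0.0283) and Rps28 (-0.17, adjusted p = 0.0279) were the other called genes, and 15 of the 46 were lower without overlap, against 7.98% of all genes.

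The shift ran through the bright genes, all 37 of which had a change below 0 (median -0.099, or -6.66% on the linear scale). Their mean was 13.59 to 13.67 with sorafenib and 13.69 to 13.77 with its vehicle, and the 90th percentile of the arrays was 9.86 to 9.94 and 9.97 to 10.01. With quantile normalization repeated on the bone marrow arrays, none of the 46 genes was called for sorafenib alone at 24 h. The part of the array's signal range in this shift was not tested. Within the first and second array sets the medians of the 46 genes were -0.13 and -0.10. Without the bone marrow of 4M45, which is in neither group but enters the shared spread, 18 genes fell, against 9.38% of all genes called lower.

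In rats that had received temsirolimus, sorafenib gave a median change of -0.07 with 44 of 46 genes below 0, none called and 6 at an unadjusted p under 0.05. Rpl34 had a change of 0.00 there (adjusted p = 0.997), Rpl35a -0.10 and Rps28 -0.11. With sorafenib alone, of 73 mitochondrial ribosomal proteins 28 fell (median -0.289), of 40 ribosome biogenesis genes 18 fell (median -0.361), and of 13 translation factors and other TOP genes 2 fell (median -0.19), with none rising. The erythroid marker mean was 12.67 to 12.94 with sorafenib and 12.76 to 12.81 without, the granulocyte marker mean 12.66 to 12.97 and 12.59 to 12.75, and the proliferation marker mean 11.24 to 11.35 and 11.27 to 11.35. The endothelial marker mean was 7.89 to 8.36 with sorafenib and 8.26 to 8.71 without, and 1 of 8 endothelial genes fell (Stab2, -0.80, adjusted p = 0.00289). The part of these cell markers in the shift was not tested.

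In heart, sorafenib alone raised 3 ribosomal protein genes at 1 h (Rpl21 by 0.37, Rpl22 by 0.31 and Rpl35a by 0.27), against 0.598% of all genes called higher. Rpl35a had 12.94, 13.01, 13.06 and 13.43 with sorafenib and 12.83, 12.85, 12.84 and 12.86 with its vehicle, and the value of 13.43 was that of rat 8M92. Without that rat none was called, and the median change fell from 0.095 to 0.013. In rats that had received temsirolimus, none was called at 1 h and the median was -0.018, or 0.056 without rat 6M68, again with none called. At 6 h only 1 of the 46 genes was called, close to the share of all genes called lower (1.77%). This was Rpl26l1, a dim paralog of Rpl26, and it was no longer called with repeated quantile normalization. It had 6.53, 6.61, 6.64 and 6.52 with sorafenib and 6.61, 7.03, 7.28 and 7.19 with its vehicle, which overlap at 6.61, and its change was -0.45 ± 0.132 (SE, adjusted p = 0.0408).

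F68/PG/PEG400 against water, 4 rats against 4, called none of the 46 in any of the 9 combinations of tissue and time, with 0 to 6 at an unadjusted p under 0.05. The smallest p was that of Rps4y2 in heart at 24 h (1.10 ± 0.372, SE, adjusted p = 0.334 by limma). Time in the vehicle rats called 1 gene, Rpl3l in bone marrow, at 24 h against 6 h (-0.49 ± 0.121, SE, adjusted p = 0.0395), where 0.176% of all genes were called lower. Anything that moved with the hour, such as time of day or array processing, cannot be told apart from it.

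Among the bright genes and Rpl3l, the widest differences between tissues were those of Rpl3 and its paralog Rpl3l, which encodes a form of the protein made in heart and skeletal muscle. In the 24 vehicle rats, Rpl3l had a log2 signal of 12.21 ± 0.0925 (SD, n = 24) in heart, 9.17 ± 0.371 in bone marrow and 4.88 ± 0.0929 in liver. Rpl3 had its lowest signal in heart, with 14.07 ± 0.0394 in bone marrow, 13.39 ± 0.0993 in liver and 12.44 ± 0.166 in heart. The tissues appear to have been normalized separately, so levels across them are set side by side with that limit, and each gene is read against the other members.

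On the difference within a rat, heart minus bone marrow was -1.63 ± 0.162 (SD, n = 24) for Rpl3, the lowest of the 37 bright genes, whose median was -0.46 and whose highest value was 0.05 (Rps29). The same difference was 3.04 ± 0.411 for Rpl3l and ran from 2.41 to 3.91 over the 24 rats. Liver minus heart was 0.96 ± 0.146 for Rpl3, the highest of the bright genes, whose median was 0.11, followed by Rpl41 (0.85) and Rpl4 (0.73), and lowest for Rps24 (-0.28). The liver signal of Rpl3l lay at the 14.1 percentile of all probe sets, near the array's floor, so no size is given for its difference from liver. Of the dim genes, Rpl39 had -1.73 for liver minus bone marrow. The bone marrow level of Rpl3l stood beside cardiac muscle marker means of 5.00 to 5.87 in the 96 bone marrows. Rpl7l1, a paralog of Rpl7 with a role in ribosome assembly, had 10.72 ± 0.159 in liver, 10.39 ± 0.135 in bone marrow and 9.69 ± 0.161 in heart. With temsirolimus alone, Rpl3l had a change of 0.02 in heart at 6 h (adjusted p = 0.921), and Rpl3 had 0.30 in heart at 6 h (adjusted p = 0.104).

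**Figure D5:**
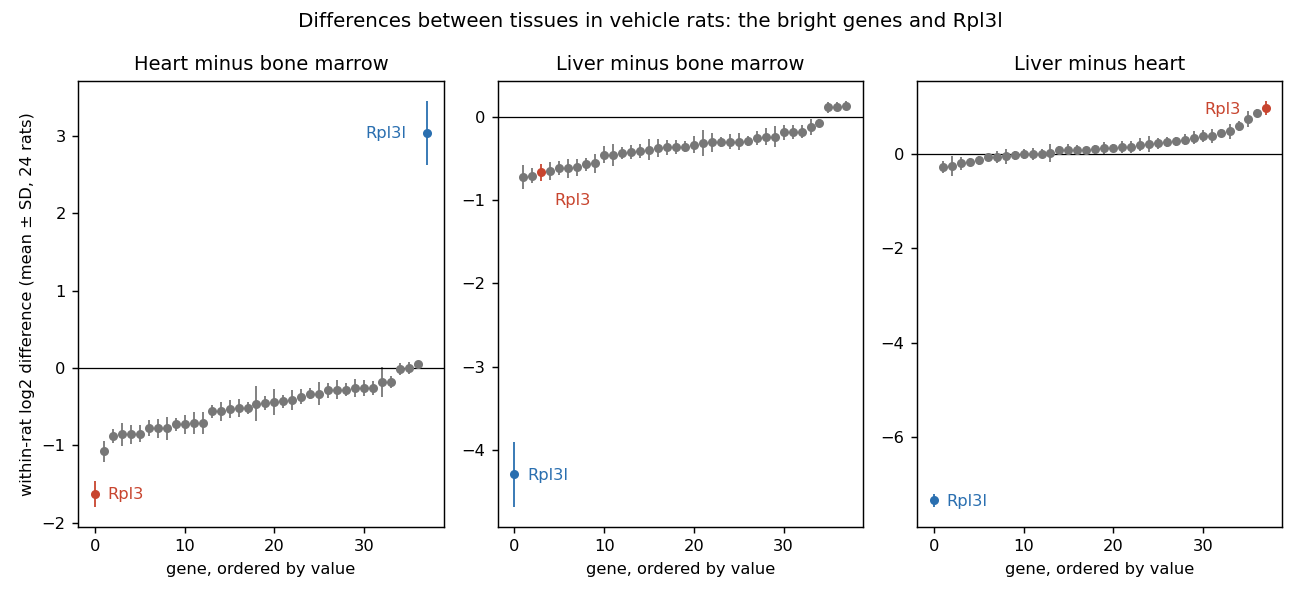
Within-rat log2 differences (mean ± SD, 24 vehicle rats) of the 37 bright genes and Rpl3l between heart, bone marrow and liver, each panel ordered by value. Rpl3 is the lowest bright gene in heart minus bone marrow (-1.63) and the highest in liver minus heart (0.96), and Rpl3l lies outside the others in all panels, with a liver signal near the array's floor, so that its distance in the liver panels is set by that floor.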

How the data were processed

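The authors extracted RNA from each tissue, hybridized it to an Affymetrix whole-genome rat array and deposited RMA values, which are background corrected, quantile normalized and on the log2 scale. Tissues appear to have been normalized separately, so tests of treatment were made within a tissue, and levels set across tissues carry that limit. Of 31099 probe sets, 20832 list 1 symbol, 436 several, and 9831 are not in the annotation used here. The members and lists were chosen with earlier results of these data known. Each tissue was fitted with limma 3.58.1 in R 4.3.3 as 24 group means plus a term for the array set at each time (the first or second pair of rats of a group), and p-values were adjusted over 14218 genes by Benjamini-Hochberg. "Called" means an adjusted p under 0.05. The fit was also run on simulated data with independent noise for each gene. Those data hold neither the correlation between genes nor the outlying arrays described above, so they do not cover these. Replicates are separate rats, whose number limits the precision. In each comparison up to 4 called members in each direction with the largest change were named, otherwise that with the smallest p. Rps6, Rpl3, Rplp0 and the paralogs could be given whatever they did, but they are given for some comparisons only. Other names were chosen after their values were seen. Alternatives were a filter on dim genes (mean log2 under 6), repeated quantile normalization, no array-set term, mean probe sets, array weights, covariates and left-out rats. The settings without 4M46 or 8M92, without 7M78 and 4M48 together, by array set and in rats that had temsirolimus were chosen after seeing the data. Promoter sequences come from RefSeq (GRCr8).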

Additional observations from a re-analysis of the deposited data

Results flagged for a closer look

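In 3 of the 72 groups, 1 array lay far from the other 3 in the mean log2 signal of the 37 bright genes (Dixon's test at the 95% level, which chance passes in about 1 in 20 groups). Rat 4M45 had 12.88 in bone marrow at 6 h with temsirolimus and F68/PG/PEG400, where the others had 13.71 to 13.75. Rat 6M68 had 13.03 in heart at 1 h with temsirolimus and sorafenib, where the others had 13.23 to 13.28. Rat 8M92 had 13.60 in heart at 1 h with TEM vehicle and sorafenib, where the others had 13.19 to 13.24.

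The change by temsirolimus alone differed between tissues for 2 genes, by limma on within-rat differences. For Rps24 it was lower in liver than in heart at 24 h by a log2 value of -0.35 (adjusted p = 0.0302), by -0.29 (adjusted p = 0.188) without rat 4M48 and by -0.07 (adjusted p = 0.91) with the mean of its 2 probe sets. For Rpl18 it was higher in heart than in bone marrow at 6 h by 0.41 (adjusted p = 0.0455), and by 0.25 (adjusted p = 0.153) without rat 4M45.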

How the results depend on the processing

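No paired analysis was possible because the treatment groups hold different rats whose labels share no replicate numbers. The replicate numbers used to leave rats out followed the order of the rat numbers within each group and do not pair rats. Tissues of the same rat were compared within the rat. Over 72 comparisons, 824 alternatives were tried for the count of called genes, of which 709 stayed within 1.5 times of the reported count, 56 were lower and 59 higher. Most of the 72 comparisons called no ribosomal protein gene with the main settings. The 709 therefore say little about the comparisons that did call genes, whose counts varied widely and are given below. The named changes kept their direction in 262 of 267 alternatives and were still called in 131. The causes of these differences were not tested.

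For temsirolimus alone in liver at 24 h (8 called), quantile normalization gave 15, array weights 23, leaving out 7M78 19, leaving out 7M78 and 4M48 16, leaving out only 4M48 5, and either oral vehicle alone 0. Leaving out each replicate in turn gave 0 to 22. With an inhibitor (0 called), quantile normalization, array weights and leaving out 7M78 each gave 6, leaving out 7M78 and 4M48 gave 7, and leaving out each replicate gave 0 to 7. For sunitinib alone in liver at 24 h (25 called), quantile normalization, array weights, leaving out 7M78 with or without 4M48 and rats that had temsirolimus each gave 0, no array-set term gave 15, and leaving out each replicate gave 0 to 41.

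For temsirolimus alone in heart at 6 h (2 called), quantile normalization, no array-set term, mean probe sets, leaving out 4M46 and either oral vehicle alone gave 0, array weights gave 15, the hepatocyte covariate 11, and leaving out each replicate 0 to 1. With an inhibitor there (0 called), mean probe sets and array weights gave 1, and the interaction had 1 with array weights. In bone marrow at 6 h (0 called), the F68/PG/PEG400 groups alone gave 21.

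For sorafenib alone in bone marrow at 24 h (3 called), the filter and mean probe sets gave 6, quantile normalization and rats that had temsirolimus 0, no array-set term 1, array weights 19, leaving out 4M45 18, and leaving out each replicate 0 to 7. In heart at 1 h (3 called), the filter and leaving out 6M68 gave 7, quantile normalization and mean probe sets 6, array weights 11, and no array-set term, leaving out 8M92, rats that had temsirolimus and leaving out each replicate 0. In heart at 6 h (1 called), quantile normalization and leaving out each replicate gave 0, array weights 4 and rats that had temsirolimus 2. In bone marrow at 6 h (0 called), rats that had temsirolimus gave 21, with 4M45 among their controls. Sunitinib alone in heart at 24 h (0 called) had 1 with quantile normalization and 0 to 7 when each replicate was left out.

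Directions turned in rats that had temsirolimus for Rpl34 (0.00) in bone marrow at 24 h, for Rpl35a (-0.02), Rpl22 (-0.02) and Rpl21 (-0.01) in heart at 1 h with sorafenib, and for Rps28 (0.11) in liver at 24 h with sunitinib.

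For time, bone marrow at 24 against 6 h (1 called) had 0 with quantile normalization, no array-set term and each replicate left out. At 24 against 1 h (0 called), array weights gave 1 (bone marrow), 2 (heart) and 1 (liver), and leaving out 4M45 gave 1 in bone marrow. In liver at 24 against 6 h (0 called), mean probe sets gave 1, array weights 2 and leaving out each replicate 0 to 1.

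Between tissues, liver against heart at 24 h (1 called) had 3 with the filter, 6 with quantile normalization, 2 with mean probe sets, 21 with array weights, 0 without 4M48, 15 without 7M78, 4 with tissues as independent arrays and 0 to 7 with each replicate left out. At 6 h (0 called) array weights gave 4 and leaving out each replicate 0 to 4. Liver against bone marrow at 24 h (0 called) had 2 with quantile normalization, 15 with array weights and 2 without 7M78. Heart against bone marrow at 6 h (1 called) had 16 with the filter, 5 with quantile normalization, 3 with array weights, 20 without 4M46, 0 with no array-set term, without 4M45 or with tissues as independent arrays, and 0 to 16 with each replicate left out.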
